A study of Drosophila melanogaster with 12 samples.

Results

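The structural and catalytic noncoding RNAs of the fly testis were examined in rRNA-depleted RNA sequencing of *klp10A* RNAi and wild type (WT) testes. They are the ribosomal RNA, the small nuclear RNAs (snRNAs), the 7SL RNA, the RNA subunits of RNase P and RNase MRP, and the roX RNAs. They were taken by symbol, as every row whose name contains rRNA: or snRNA: or begins with 7SLRNA, RNaseP:RNA, RNaseMRP:RNA or roX, with snoRNAs left out. This gave 38 of the 15367 rows of the count table, which holds 15240 genes and 127 transposable elements (TEs). There were 31 snRNA rows, 2 7SL rows, 2 rows for RNase P and RNase MRP, 2 roX rows and 1 rRNA row, and the rule uses their names and no measured value. The snRNA rows include 7SK, a regulator of transcription elongation, and U3:22A, whose RNA acts in the nucleolus, because their symbols contain snRNA:. Functional 5S, 18S, 28S and mitochondrial rRNA genes were not analysed here, and rRNA pseudogenes were used only for their share of the libraries.

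The *klp10A* RNAi testes carried *nos-gal4* driving *UAS-klp10A* TRiP.HMS00920, a hairpin against the microtubule-depolymerising kinesin Klp10A. The *nos* driver is active in the germline, so somatic testis cells were not targeted. The WT strain was given no further genotype in the sources used here, and effects of the driver, the hairpin and the strain background cannot be told apart from those of the knockdown. Testes came from flies aged 0 to 2 days, with 300 pairs pooled per replicate and 3 replicates per genotype.

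Apart from the roX RNAs, these belong to the general machinery of cells. The 5.8S rRNA pairs with the large rRNA in the large ribosomal subunit, and 7SL is the scaffold of the signal recognition particle, which brings ribosomes making secreted proteins to the endoplasmic reticulum. The U1, U2, U4, U5 and U6 snRNAs form the major spliceosome, and U11, U12, U4atac and U6atac, with U5, form the minor spliceosome that removes a rare class of introns. The RNA of RNase P trims the 5′ ends of tRNAs, and that of RNase MRP takes part in cutting the precursor of rRNA. roX1 and roX2 guide the MSL complex to the single male X chromosome, whose transcription it raises in somatic cells. In *Drosophila* many of the snRNAs are made from several dispersed gene copies with nearly the same sequence.

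The 6 libraries held between 18634687 and 25536724 counts. The targeted gene followed the labels. *Klp10A* had 13.2, 14.4 and 13.0 normalised CPM in *klp10A* RNAi testes, against 76.7, 57.0 and 73.5 in WT testes (log2 fold change −2.35 ± 0.16 SE, adjusted p = 0.00105 by edgeR). Normalised CPM is the count per library size, in CPM units, after the library size was rescaled by the trimmed mean of M values (TMM). The testis marker list had 21 genes tested, of which none passed an adjusted p of 0.01, and its sum was 1739, 2106 and 1762 normalised CPM in *klp10A* RNAi and 1920, 1389 and 1756 in WT. The highest levels in the sum were those of *Mst87F*, *ocn* and *dj*, genes of sperm formation, and gene by gene the list had a median log2 fold change of 0.32, with 19 of the 21 positive. For 9 of them (*nos*, *bam*, *bgcn*, *aly*, *sa*, *mia*, *topi*, *fzo* and *twe*, markers of early germ cells and spermatocytes), every *klp10A* RNAi library was above every WT library, against 35.5% of all rows not overlapping in either direction. The share of all rows in that direction alone is not given here. *vas*, *can* and *comr*, also markers of germ cells or spermatocytes, overlapped between genotypes. The lowest adjusted p was that of *aly*, a regulator of spermatocyte transcription, which had 11.3, 9.16 and 9.04 normalised CPM in *klp10A* RNAi and 5.68, 6.25 and 6.50 in WT (log2 fold change 0.68, adjusted p = 0.0340 by edgeR). The part of this in the values of the 38 rows was not tested. Replicate 2 of each genotype stood apart from the other libraries of its group. Within *klp10A* RNAi the chi-square per degree of freedom between replicates 1 and 3 was 7.35, and it was 126 and 125 for the pairs with replicate 2. In WT the 3 pairs gave 103, 198 and 295, and the highest were those with replicate 2. Results that rest on these libraries are therefore given with and without them. Since whole testes were sequenced, fewer cells of a type and less RNA per cell cannot be told apart.

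The 38 rows took a large share of each library. They held 14.8%, 15.6% and 15.1% of all counts in *klp10A* RNAi testes, against 10.8%, 7.47% and 14.6% in WT testes. The *klp10A* RNAi libraries lay close together and above all WT libraries, while the WT libraries spread over a wide range. The means were 15.1 ± 0.39% in *klp10A* RNAi and 10.95 ± 3.56% in WT (SD, n = 3 each), 4.18 points apart (exact permutation test, two-sided p = 0.1, the smallest that 3 against 3 libraries can give). WT replicate 2 set much of the gap, since the difference was 2.44 points without it.

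Most of this share was 7SL. The 2 7SL rows took 13.5%, 13.97% and 13.8% of all counts in *klp10A* RNAi testes, against 9.85%, 6.41% and 13.3% in WT testes (exact permutation p = 0.1, n = 3 each). Among the counts of the 38 rows, 7SL made up 91.3%, 89.8% and 91.7% in *klp10A* RNAi and 91.2%, 85.9% and 91.4% in WT. The makeup of the 38 rows was thus alike in 5 libraries, and WT replicate 2 had less 7SL. The 31 snRNA rows took 1.12%, 1.10% and 1.12% in *klp10A* RNAi, against 0.764%, 0.864% and 1.06% in WT, again with no overlap. The U1 rows gave 0.669%, 0.655% and 0.658% of all counts in *klp10A* RNAi, against 0.458%, 0.403% and 0.654% in WT, and WT replicate 3 came close to the *klp10A* RNAi libraries. RNase P and RNase MRP together took 0.0755%, 0.0634% and 0.0770% in *klp10A* RNAi and 0.0605%, 0.145% and 0.0774% in WT, and roX took 0.0233%, 0.0184% and 0.0225% in *klp10A* RNAi and 0.0235%, 0.0212% and 0.0256% in WT. Both classes overlapped between genotypes.

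**Figure D1:**
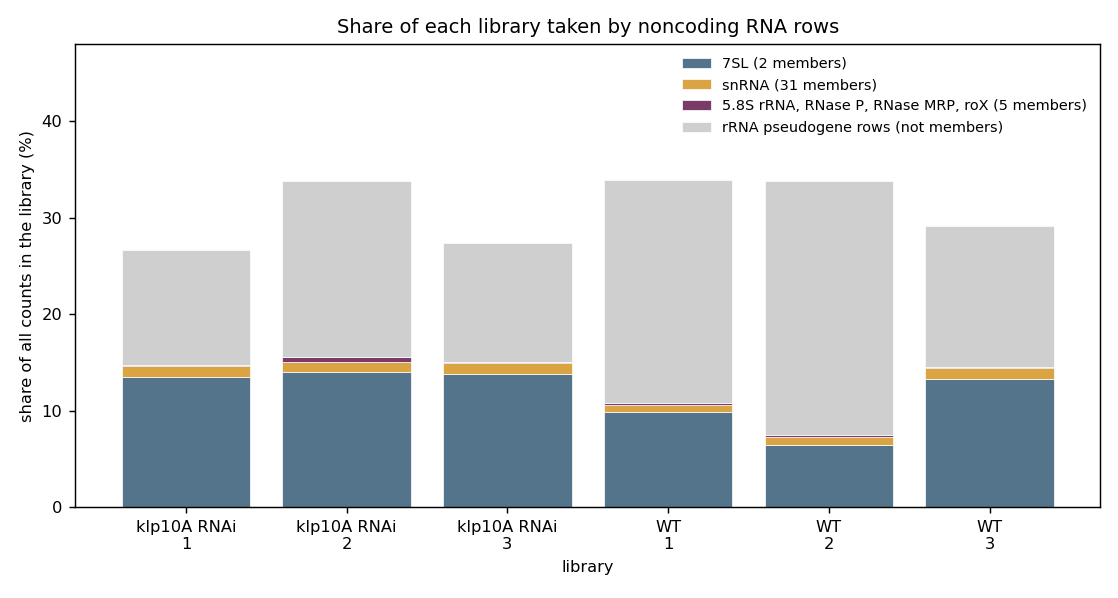
Share of all counts in each library (y axis, %) taken by 7SL, by the snRNA rows, by the 5 remaining rows and by 5 rRNA pseudogene rows outside the 38 rows. The 38 rows held 14.8% to 15.6% in *klp10A* RNAi and 7.47% to 14.6% in WT, and the 5 pseudogene rows held 11.9% to 18.2% in *klp10A* RNAi and 14.6% to 26.4% in WT.

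A share depends on what else was counted. Genes named only by a CR number also took a large share of each library, and 5 of these genes are rRNA pseudogenes in RefSeq. Those 5 took 11.9%, 18.2% and 12.3% of counts in *klp10A* RNAi testes, against 23.1%, 26.4% and 14.6% in WT testes. The largest was *CR41602*, an 18S rRNA pseudogene on the X chromosome, with 6.99%, 12.2% and 6.92% in *klp10A* RNAi and 14.3%, 17.1% and 8.51% in WT. WT replicate 3, with the lowest pseudogene share in WT, had the highest share of the 38 rows in WT. In *klp10A* RNAi the order was another, since replicate 2 had the highest pseudogene share and also the highest share of the 38 rows (15.6%). All 636 CR-number genes together took 24.9%, 37.2% and 26.0% in *klp10A* RNAi and 45.7%, 51.6% and 30.6% in WT. As a share of the counts outside these genes, the 38 rows held 19.7%, 24.8% and 20.4% in *klp10A* RNAi and 19.9%, 15.4% and 21.0% in WT, and the groups overlapped (exact permutation p = 0.5, n = 3 each). With the 5 pseudogenes added to the 38 rows the order of the means turned, to 26.7%, 33.8% and 27.3% in *klp10A* RNAi and 33.95%, 33.8% and 29.2% in WT (difference −3.05 points, exact permutation p = 0.2). The libraries had been depleted of rRNA by hybridisation, and the part of the depletion in these shares was not tested.

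The 38 rows had little effect on TMM scaling. The TMM factors, which multiply the total count of a library, were 1.33, 0.988 and 1.27 for *klp10A* RNAi and 0.816, 0.702 and 1.04 for WT. When the 38 rows were left out of their computation the factors became 1.32, 0.993 and 1.26 for *klp10A* RNAi and 0.810, 0.712 and 1.05 for WT, and no factor moved by more than 1.39%. TMM trims rows with extreme ratios or levels, and the median log2 fold change over the 12100 rows tested was 0.01 with the 38 rows in and 0.02 with them out. Scaling by total counts gave another centre. The median over all rows tested was 0.50 with total counts and 0.56 with total counts from which the 38 rows had been subtracted. Subtracting the CR-number genes instead brought the median to 0.20, so these genes moved the centre more than the 38 rows did, and in the opposite direction. Taking the 38 rows out of the total did not bring total-count scaling nearer to TMM.

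**Figure D2:**
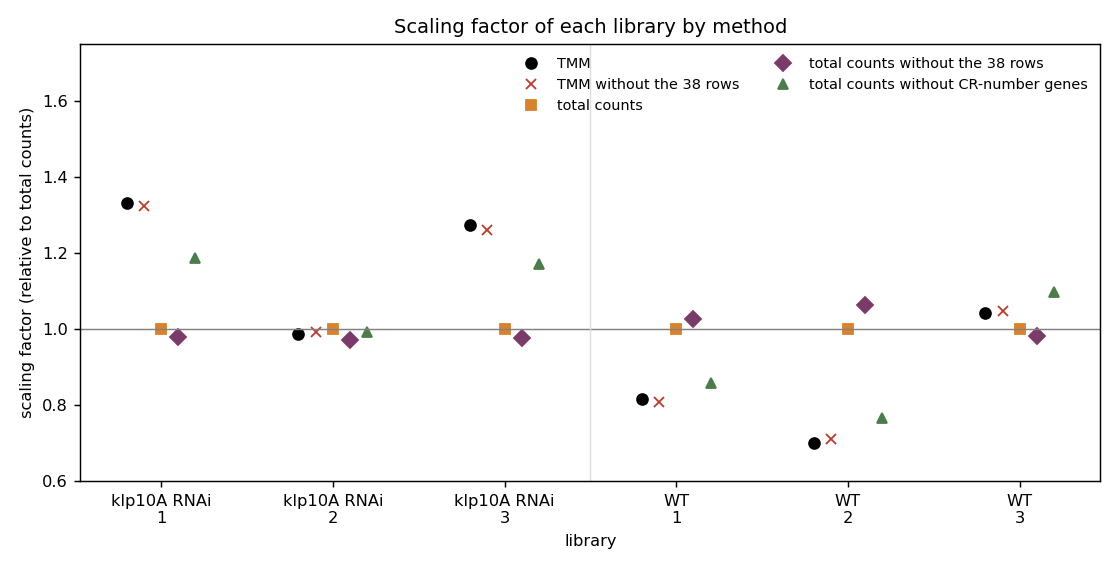
Scaling factor of each library (y axis, relative to its total count) by method. TMM gave nearly the same factors with and without the 38 rows (1.33 and 1.32 for the first *klp10A* RNAi library), whereas total counts and TMM differed by up to 42.5%.

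Of the 38 rows, 33 passed the filter on low counts and were tested. None passed an adjusted p of 0.01 by edgeR's quasi-likelihood test, where 2.00% of all rows did. At an adjusted p of 0.05 only *roX1* passed, against 7.60% of all rows. At an unadjusted p under 0.05 there were 5 rows (*roX1*, RNaseMRP:RNA, U4:25F, U6:96Aa and U6:96Ac), against 25.2% of all rows. The DESeq2 Wald test called 1 row, *roX1*, at 0.01, against 6.45% of all rows, and so did edgeR with both libraries numbered 2 left out, against 4.42%. The groups did not overlap in normalised CPM for 6 of the 33 rows, with 5 lower and 1 higher in *klp10A* RNAi, while 35.5% of all rows tested did not overlap. The 33 rows had a median log2 fold change of −0.13, beside 0.01 over all rows, with extremes of −1.29 and 1.36. The shares of these rows called at 0.01 and 0.05, and the share not overlapping, were thus below those of the whole table.

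Some gene copies of the same RNA could not be told apart by their counts. Reads that align to several places were shared among them by the authors' counting, and 4 pairs of copies had nearly the same counts in every library. The 2 7SL rows differed by 26 to 41 counts in libraries where each held 642764 or more, U1:95Ca and U1:95Cb by 1 to 4 counts, U2:34ABb and U2:34ABc by at most 1, and U6:96Aa and U6:96Ac by at most 2. Counts were therefore summed over the copies of each of 18 families and fitted together with all other rows, and 15 families were tested. None passed 0.01 (2.04% of all features in this fit did), and the adjusted p was under 0.05 for roX1 alone (7.64% of all features). At 0.01, roX1 passed as a family with DESeq2 (6.46% of all features) and without the libraries numbered 2 (4.44%). Of the 15 families, 11 had a negative log2 fold change and 4 a positive one. In 4 families (RNase MRP, RNase P, U6 and roX1) every *klp10A* RNAi library was below every WT library, and in none was the reverse seen. This is 4 of 15 families, where 35.5% of all rows did not overlap in either direction, so it is not a result about these families.

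**Figure D3:**
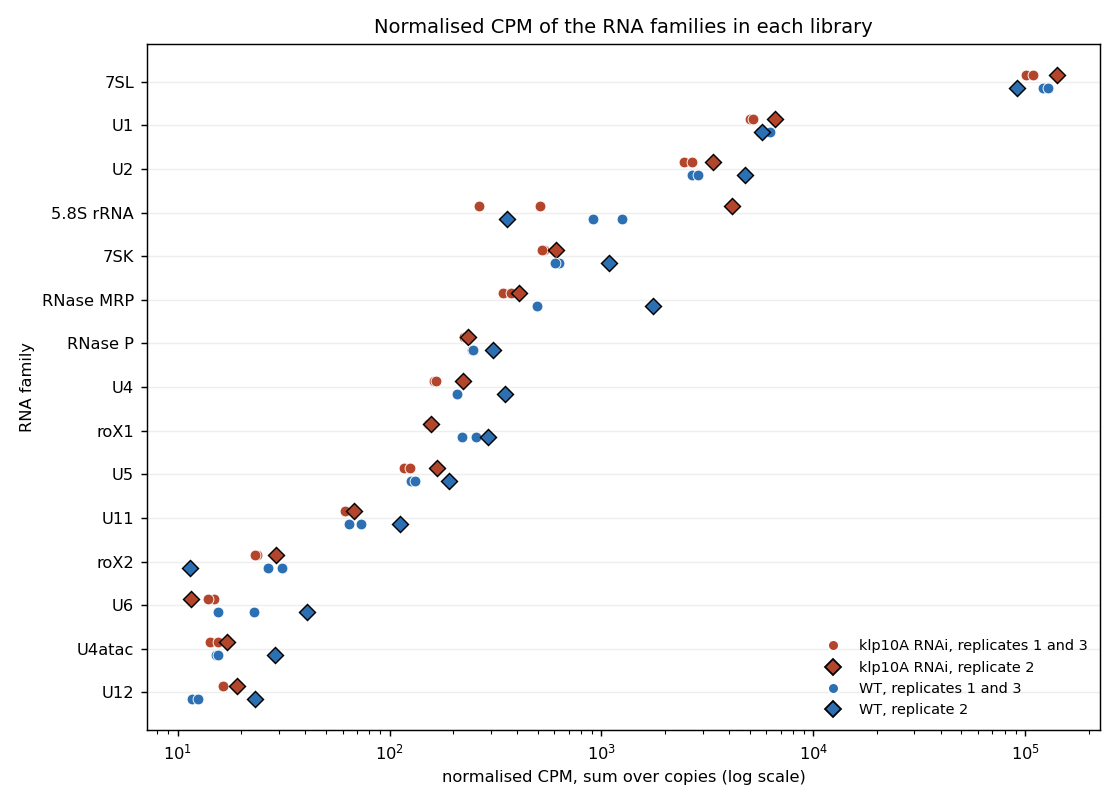
Normalised CPM (x axis, log scale) of the 15 tested families in each library, summed over gene copies, with *klp10A* RNAi above WT in each row and replicate 2 of each genotype as diamonds. In WT the diamond lies away from the other libraries for RNase MRP (1754, against 497 and 496), and in *klp10A* RNAi for 5.8S rRNA (4117, against 512 and 265).

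The 5.8S rRNA, placed on the X chromosome in RefSeq, was the most variable member. It had 512, 4117 and 265 normalised CPM in *klp10A* RNAi testes, against 1249, 359 and 908 in WT testes. Replicate 2 was the highest library in *klp10A* RNAi and the lowest in WT, and the groups overlapped. The fitted log2 fold change was 0.96 ± 0.92 SE (adjusted p = 0.530). It was −1.11 without *klp10A* RNAi replicate 2 and −1.47 (adjusted p = 0.0164) with both libraries numbered 2 left out. As a share of all counts 5.8S rRNA took 0.0683%, 0.407% and 0.0337% in *klp10A* RNAi and 0.102%, 0.0252% and 0.0946% in WT. These are the molecules left after depletion, and the amount of 5.8S rRNA in the testes was not measured.

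The 7SL RNA is annotated as a pair of rows on chromosome arm 3R, CR32864 and CR42652, each 299 nt in RefSeq. Their sum was 101321, 141445 and 108514 normalised CPM in *klp10A* RNAi testes, against 120812, 91371 and 127917 in WT testes. The ranges overlapped, with *klp10A* RNAi replicate 2 the highest library and WT replicate 2 the lowest. The log2 fold change was 0.05 ± 0.38 SE (adjusted p = 0.943), and it was −0.25 with both libraries numbered 2 left out. The non-overlapping share of 7SL in the raw counts was therefore not kept after TMM scaling. The list drawn up for proteins of the signal recognition particle and its receptor had 9 tested genes. None of them passed 0.01, and −0.07 was their median on the log2 scale. Both *Srp54k* and *Srp54* are on this list by symbol. Whether *Srp54* (log2 fold change −0.29) encodes a protein of the particle was not checked.

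The U1 snRNA, which pairs with the 5′ splice site, had the highest counts of the spliceosomal RNAs. Its sum over copies was 5017, 6629 and 5165 normalised CPM in *klp10A* RNAi testes, against 5613, 5744 and 6278 in WT testes. The log2 fold change was −0.07 ± 0.24 SE (adjusted p = 0.869), and the groups overlapped. The U2 snRNA, which pairs with the branch point, had 2458, 3343 and 2665 normalised CPM in *klp10A* RNAi and 2682, 4736 and 2844 in WT. WT replicate 2 was the highest library, and the log2 fold change of −0.28 (adjusted p = 0.558) became 0.03 without it.

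The U4, U5 and U6 snRNAs enter the spliceosome as a tri-snRNP. U4, which keeps U6 inactive until activation, had 162, 223 and 165 normalised CPM in *klp10A* RNAi and 208, 351 and 207 in WT (log2 fold change −0.48, adjusted p = 0.278). U5, which holds the exon ends, had 117, 168 and 124 in *klp10A* RNAi and 126, 190 and 132 in WT (log2 fold change −0.13, adjusted p = 0.723). In both, replicate 2 was the highest library of each genotype. U6, part of the catalytic centre, had 14.8, 11.6 and 13.9 in *klp10A* RNAi and 15.5, 40.7 and 22.97 in WT. All 3 *klp10A* RNAi libraries were below WT, and the highest of them was close to WT replicate 1. The log2 fold change of U6 was −0.97 ± 0.32 SE (adjusted p = 0.104), and it was −0.52 without WT replicate 2.

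The RNAs of the minor spliceosome had low counts. U11, which pairs with the 5′ splice site of minor introns, had 62.3, 67.8 and 61.6 normalised CPM in *klp10A* RNAi testes and 64.0, 112 and 73.3 in WT testes. U12, which pairs with their branch point, had 16.3, 19.1 and 16.4 in *klp10A* RNAi and 11.7, 23.2 and 12.5 in WT. U4atac had 14.3, 17.0 and 15.5 in *klp10A* RNAi and 15.2, 28.9 and 15.6 in WT. In all of them WT replicate 2 was the highest library. Their log2 fold changes were −0.38, 0.14 and −0.35 (adjusted p = 0.310, 0.744 and 0.411 by edgeR). Without WT replicate 2 they were −0.10, 0.52 and 0.02 (adjusted p = 0.616, 0.0396 and 0.938 by edgeR). U6atac had between 3 and 10 counts in every library and was not tested.

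The remaining low rows were not tested either. U7, which acts in the 3′ end processing of replication-dependent histone mRNAs, had 0, 1 and 0 counts in *klp10A* RNAi and 2, 1 and 0 in WT. U3:22A had 1, 0 and 2 counts in *klp10A* RNAi and 1, 0 and 0 in WT, and the files' symbol had no match in RefSeq. U1:21D and U6:96Ab were at 0 in every library, which allows a level of up to 0.117 to 0.161 CPM at 3 counts per library. Because similar copies share reads, a copy at 0 does not show that its gene is silent.

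The 7SK RNA, which holds the elongation factor P-TEFb inactive, had 538, 607 and 526 normalised CPM in *klp10A* RNAi testes, against 627, 1088 and 602 in WT testes. The groups overlapped, and WT replicate 2 was the highest library. The log2 fold change was −0.47 ± 0.26 SE (adjusted p = 0.293), and −0.14 without WT replicate 2.

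RNase MRP and RNase P share most of their protein subunits, and both RNAs were lower in all *klp10A* RNAi libraries. RNase MRP RNA had 342, 407 and 376 normalised CPM in *klp10A* RNAi, against 497, 1754 and 496 in WT. WT replicates 1 and 3 lay close to each other and WT replicate 2 was far above them. The log2 fold change was −1.29 ± 0.48 SE (adjusted p = 0.140). Without WT replicate 2 it was −0.41 (adjusted p = 0.0728). RNase P RNA had 225, 235 and 229 in *klp10A* RNAi, against 245, 309 and 246 in WT (log2 fold change −0.21 ± 0.16 SE, adjusted p = 0.432). The 4 tested protein genes of these enzymes had a median log2 fold change of 0.16.

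The roX RNAs are long, 5468 nt for *roX1* and 1368 nt for *roX2* in RefSeq, and both genes lie on the X chromosome. *roX1* had 151, 157 and 154 normalised CPM in *klp10A* RNAi testes, against 257, 291 and 219 in WT testes. The *klp10A* RNAi libraries lay close to each other and all below WT. The log2 fold change was −0.73 ± 0.16 SE, with an adjusted p of 0.0338 by edgeR and 0.000334 by DESeq2. It stayed between −0.82 and −0.63 when any single library was left out, with an adjusted p between 0.0128 and 0.165. With both libraries numbered 2 left out it was −0.64 (adjusted p = 0.00810). Under total counts it was −0.22 (adjusted p = 0.640), where the median of all rows was 0.50.

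*roX2* did not follow *roX1*. It had 23.7, 29.2 and 23.2 normalised CPM in *klp10A* RNAi and 31.1, 11.4 and 26.8 in WT (log2 fold change 0.13 ± 0.32 SE, adjusted p = 0.811). WT replicate 2 was the lowest library for *roX2* and the highest for *roX1*. Without that library *roX2* had a log2 fold change of −0.19, and the difference between the genes was not tested. The genes of the MSL complex that works with roX had log2 fold changes between −0.46 (*msl-2*) and 0.34 (*msl-3*), and none of the 5 tested passed 0.01.

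Markers of other abdominal tissues were examined beside this, and several were lower in *klp10A* RNAi, as *roX1* was. Of 8 Malpighian tubule genes tested, 6 fell. *NaPi-T*, a phosphate transporter gene by name, had 0.443, 2.42 and 1.29 normalised CPM in *klp10A* RNAi, against 28.7, 37.95 and 17.1 in WT (log2 fold change −4.32, adjusted p = 0.00292 by edgeR), and *Cyp6a18*, *Oatp58Db*, *salt*, *Uro* and *Irk3* fell by 4.53, 4.21, 3.96, 3.82 and 3.62 on the log2 scale. The remaining genes tested were *CG3014* (log2 fold change −0.46, adjusted p = 0.147 by edgeR) and *Vha16-2*, which went the other way (0.43, adjusted p = 0.199). The tubule list summed to 14.7, 23.9 and 14.8 normalised CPM in *klp10A* RNAi and 135, 121 and 79.3 in WT. Fat body markers summed to 5.48, 5.99 and 7.21 in *klp10A* RNAi and 8.68, 12.9 and 13.7 in WT, with 4 of 9 matched genes tested and none past 0.01. Of these, *Lsp2* (log2 fold change −1.64, adjusted p = 0.0233 by edgeR), *Lsp1beta* (−1.15, 0.0422) and *Obp99b* (−0.42, 0.396) were lower. *Yp3* was higher (0.48, adjusted p = 0.379 by edgeR). Ejaculatory duct and bulb markers summed to 1282, 1367 and 1348 in *klp10A* RNAi and 1487, 2204 and 1607 in WT, with none of 6 past 0.01. Gene by gene this list was mixed, with 4 negative and 2 positive log2 fold changes. *Gld* was lower (log2 fold change −0.88, adjusted p = 0.0333 by edgeR). *PebIII* was higher, with 47.6, 40.0 and 38.7 in *klp10A* RNAi and 29.5, 19.5 and 22.3 in WT (log2 fold change 0.82, adjusted p = 0.0330 by edgeR). Accessory gland markers overlapped in their sum, at 1944, 2675 and 2268 in *klp10A* RNAi and 4188, 2371 and 3336 in WT, with none of 12 past 0.01. All 12 nevertheless had negative log2 fold changes, with a median of −0.54. For 3 of them every *klp10A* RNAi library was below every WT library, against 35.5% of all rows not overlapping in either direction. The share of all rows in that direction alone is not given here. The part of these tissues in the *roX1* difference, or in that of any other member, was not tested.

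**Figure D4:**
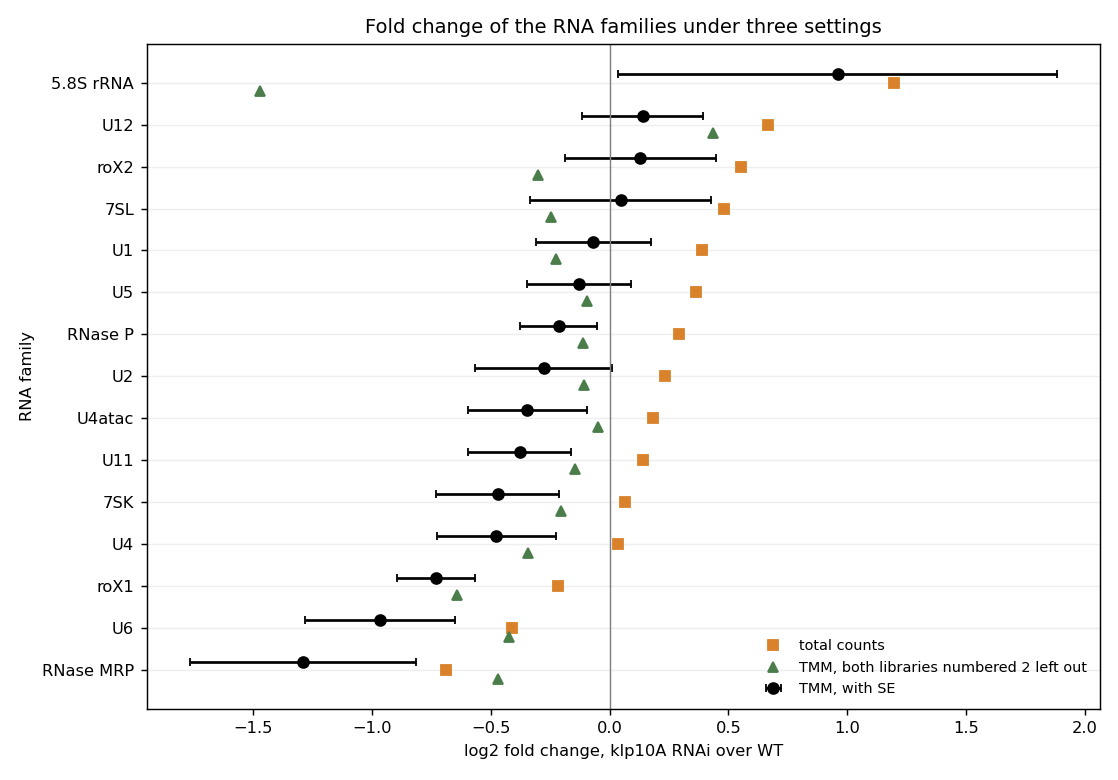
Log2 fold change (x axis, *klp10A* RNAi over WT) of the 15 tested families with TMM (circles, bars are the SE), with total counts (squares) and with both libraries numbered 2 left out (triangles). Total counts placed every family further to the right (roX1 at −0.22, against −0.73 with TMM), and RNase MRP lay at −0.47 without the libraries numbered 2, against −1.29 with them.

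Counts per length spanned several orders of magnitude over the families, and the genotypes were close beside that span. How well RNAs of different length were recovered in the libraries was not measured, so these values do not rank the RNAs in the testes. The roX RNAs are left out here, since they are much longer than the rest. Per kilobase, 7SL averaged 391617 ± 71551 normalised CPM in *klp10A* RNAi and 379153 ± 64806 in WT (SD, n = 3 each), followed by U1 with 34169 ± 5431 in *klp10A* RNAi and 35843 ± 2150 in WT. U2 had 14711 ± 2415 in *klp10A* RNAi and 17832 ± 5953 in WT. The 5.8S rRNA, at 13264 ± 17530 in *klp10A* RNAi and 6819 ± 3651 in WT, did not differ from U2 beyond its spread. U4, 7SK, U5, RNase MRP and RNase P lay within the same range, from 768 ± 17 for RNase P to 1271 ± 239 for U4 in *klp10A* RNAi, and from 891 ± 122 for RNase P to 2398 ± 1901 for RNase MRP in WT. U6 came at 126 ± 15.7 in *klp10A* RNAi and 246 ± 121 in WT, and U11 at 232 ± 12.4 in *klp10A* RNAi and 302 ± 93.2 in WT, so in WT these did not differ beyond their spread. U4atac and U12 were lowest of the tested families, at 97.3 ± 8.62 and 72.7 ± 6.75 in *klp10A* RNAi, against 124 ± 48.9 and 66.3 ± 26.9 in WT.

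WT replicate 2 stood apart from the other WT libraries for many of the families, in both directions, but not for U1. Relative to the mean of the other WT libraries it had 3.53 times the RNase MRP RNA, 2.12 times the U6, 1.92 times the U12, 1.88 times the U4atac, 1.77 times the 7SK and 1.71 times the U2. It had 0.735 times the 7SL, 0.396 times the roX2 and 0.333 times the 5.8S rRNA, and 0.966 times the U1. In *klp10A* RNAi, replicate 2 had 10.6 times the 5.8S rRNA of the other libraries and between 0.806 and 1.39 times the level of every other tested family. The library has no batch label, and what sets it apart was not tested.

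Other copies had different counts, and their balance within a family was compared. U2:38ABa, U2:14B and U2:38ABb, however, kept nearly the same proportion to each other in all 6 libraries. They had 3758, 7510 and 11265 counts in *klp10A* RNAi replicate 1, and 2899, 5785 and 8686 in WT replicate 1. These copies could therefore not be told apart as separate measurements either. The counts of similar copies depend on how the authors' counting divided reads with several matches, and the sequences of the copies were not compared. Within each of the U1, U2, U4 and U5 families, the share of the family's counts on each copy is a ratio inside a library and does not depend on scaling. Copies with nearly the same counts were taken as a pair, which gave 18 shares. The groups did not overlap for 10 of the 18 (55.6%), with 7 higher and 3 lower in *klp10A* RNAi. The 7 include U2:14B, U2:38ABa and U2:38ABb, so a single shift is counted more than once. The 18 shares are thus not 18 separate comparisons. In normalised CPM, which is another quantity, 35.5% of all rows did not overlap, and no such share over the other genes exists to set beside the 18. Each of these had an exact permutation p of 0.1, the smallest possible, and an adjusted p of 0.18 over the 18 shares, so none can pass 0.05 in this design. The shares of a family sum to 100%, so they are not independent of each other.

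U5 showed the widest shift. U5:63BC, on chromosome arm 3L and the most abundant of the 7 copies, held 47.4%, 45.1% and 46.0% of U5 counts in *klp10A* RNAi testes, against 55.9%, 59.0% and 52.3% in WT testes. The difference was −9.54 percentage points, and it ranged from −11.3 to −7.88 when any single library was left out. The share that U5:63BC lacked in *klp10A* RNAi was spread over the other copies. U5:23D held 13.9%, 15.9% and 14.6% in *klp10A* RNAi, against 12.5%, 11.6% and 11.96% in WT. U5:34A held 11.7%, 10.4% and 10.7% in *klp10A* RNAi, against 9.25%, 6.96% and 7.99% in WT. U5:14B, U5:35D, U5:38ABa and U5:38ABb also had higher means in *klp10A* RNAi, by 0.445 to 1.31 points, with overlapping libraries. In normalised CPM, U5:34A was the single row of the 33 that was above WT in every *klp10A* RNAi library, with 13.7, 17.5 and 13.3 in *klp10A* RNAi and 11.7, 13.2 and 10.5 in WT (log2 fold change 0.33, adjusted p = 0.245), and U5:63BC had 55.7, 75.7 and 57.2 in *klp10A* RNAi and 70.5, 112 and 69.02 in WT (log2 fold change −0.41, adjusted p = 0.296).

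The U2 shares were smaller in their shift and tighter between replicates. The pair U2:34ABb and U2:34ABc held 52.3%, 50.4% and 51.6% of U2 counts in *klp10A* RNAi, against 54.8%, 54.7% and 55.4% in WT. U2:38ABb held 18.5%, 19.2% and 18.7% in *klp10A* RNAi, against 17.0%, 17.0% and 16.9% in WT. U2:14B, on the X chromosome, held 12.3%, 12.8% and 12.4% in *klp10A* RNAi, against 11.3%, 11.4% and 11.2% in WT. WT replicate 2, which stood apart in the level of U2, lay close to the other WT libraries in each of these shares. U2:38ABa was higher as well, at 6.16%, 6.41% and 6.23% in *klp10A* RNAi and 5.68%, 5.68% and 5.63% in WT, and U2:34ABa overlapped. Since U2:38ABa, U2:14B and U2:38ABb kept nearly the same proportion to each other in every library, their shares do not show separate shifts.

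In the U1 family the pair U1:95Ca and U1:95Cb held most counts, with 77.2%, 77.2% and 76.8% in *klp10A* RNAi and 79.4%, 79.0% and 77.0% in WT, and these overlapped. U1:95Cc held 9.18%, 9.21% and 9.23% in *klp10A* RNAi, against 7.89%, 8.51% and 8.90% in WT. U1:82Eb overlapped, at 13.6%, 13.6% and 13.9% in *klp10A* RNAi and 12.7%, 12.5% and 14.1% in WT. In the U4 family, U4:38AB and U4:39B held nearly all counts at close to equal parts in every library. U4:39B held 51.4%, 50.6% and 51.3% in *klp10A* RNAi, against 51.7%, 52.9% and 51.6% in WT. The rare copy U4:25F had 30, 34 and 12 counts in *klp10A* RNAi, against 4, 9 and 8 in WT, which is 0.745%, 0.604% and 0.303% of U4 in *klp10A* RNAi and 0.101%, 0.182% and 0.186% in WT. In normalised CPM, U4:25F had 1.21, 1.35 and 0.500 in *klp10A* RNAi, and the lowest of these was below the 0.640 of WT replicate 2 (log2 fold change 1.36, adjusted p = 0.135). U4:25F was the member called at 0.01 under total counts, where 4.35% of all rows were called, and under total counts without the 38 rows, where 3.73% were. In both settings edgeR set the spread of each row to the trend over all rows. The own spread of U4:25F, with 4 to 34 counts per library, did not enter those calls.

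**Figure D5:**
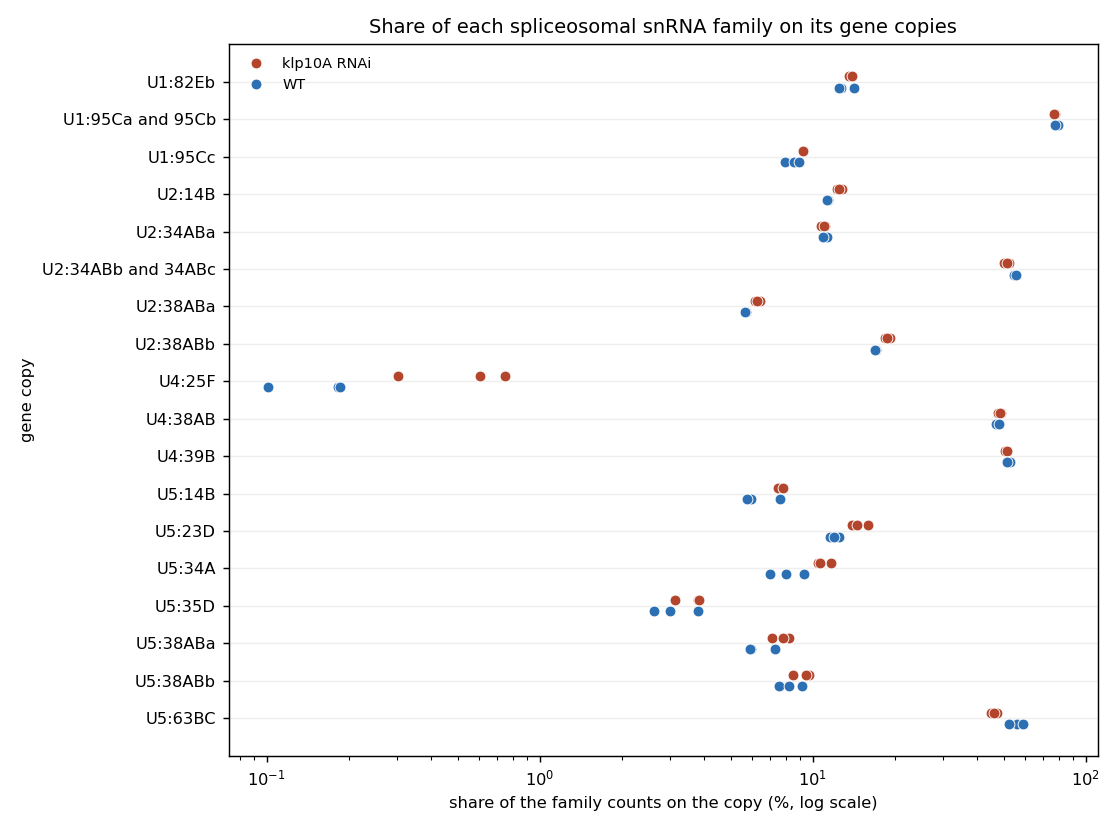
Share of each family's counts on each gene copy (x axis, %, log scale) in the U1, U2, U4 and U5 families, 1 point per library, with *klp10A* RNAi above WT. U5:63BC lay at 45.1% to 47.4% in *klp10A* RNAi and at 52.3% to 59.0% in WT.

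The separate copies did not all have the sign of their family. U1:95Cc, U4:25F and every U5 row but U5:63BC had positive log2 fold changes, while the U1, U4 and U5 sums had negative ones. Among the U1 copies, U1:95Ca (and its twin U1:95Cb) had 1937, 2557 and 1985 normalised CPM in *klp10A* RNAi and 2229, 2270 and 2417 in WT. U1:82Eb had 682, 903 and 719 in *klp10A* RNAi and 711, 716 and 886 in WT, and U1:95Cc had 460, 611 and 477 in *klp10A* RNAi and 443, 489 and 559 in WT. All U1 copies overlapped between genotypes, and *klp10A* RNAi replicate 2 was the highest library in each. Among the U2 copies, U2:34ABb (and its twin U2:34ABc) had 643, 842 and 688 in *klp10A* RNAi and 735, 1295 and 787 in WT. U2:38ABb had 454, 643 and 497 in *klp10A* RNAi and 457, 806 and 479.9 in WT, and U2:14B had 302, 429 and 331 in *klp10A* RNAi and 304, 538 and 319.7 in WT. WT replicate 2 was the highest library for each of these. U2:34ABa, with 264, 372 and 294 in *klp10A* RNAi and 299, 534 and 310.4 in WT, and U2:38ABa, with 151, 214 and 166 in *klp10A* RNAi and 152, 269 and 160.04 in WT, showed the same order. The log2 fold changes ran from −0.37 to −0.13 over the 6 U2 rows and from −0.09 to 0.05 over the 4 U1 rows tested.

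In the U4 family, U4:38AB had 77.7, 109 and 79.8 normalised CPM in *klp10A* RNAi and 100.2, 165 and 99.8 in WT, and U4:39B had 83.3, 113 and 84.5 in *klp10A* RNAi and 107, 185 and 107 in WT. Replicate 2 was again the highest library of each genotype, and both groups overlapped. Among the smaller U5 copies, U5:23D had 16.3, 26.8 and 18.1 in *klp10A* RNAi and 15.7, 22.03 and 15.8 in WT. U5:38ABb had 9.91, 16.3 and 11.7 in *klp10A* RNAi and 9.52, 15.5 and 12.1 in WT, and U5:38ABa had 8.34, 13.8 and 9.67 in *klp10A* RNAi and 7.52, 11.2 and 9.58 in WT. These overlapped, and replicate 2 was the highest library of each genotype. U5:14B and U5:35D were lower still, between 3.79 and 12.6 normalised CPM over the 6 libraries. The log2 fold changes of the 7 U5 rows ran from −0.41 (U5:63BC) to 0.33 (U5:34A), and U5:63BC was the only negative one.

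The protein partners of these RNAs were measured in the same libraries. In 11 lists of 138 symbols, 100 matched and were tested, and 38 symbols had no match in the table. None of the 100 rose or fell at an adjusted p of 0.01 by edgeR, and none was under 0.05. At an unadjusted p under 0.05 there were 5, against 25.2% of all rows. They were *U2A*, *CG11985*, *coil* and *Trf* with positive and *l(3)72Ab* with negative log2 fold changes. The list medians ran from −0.15 for the MSL complex to 0.16 for the proteins of RNase P and MRP, beside 0.01 over all rows. Sm ring proteins bind all snRNAs of both spliceosomes but U6 and U6atac. Their list, which also holds *Lsm10* and *Lsm11*, had a median of −0.07 over 9 genes. The Integrator and SNAPc genes, which make snRNAs, had −0.12 over 16 genes, and the assembly factors 0.09 over 8 genes. RNA polymerase I and nucleolar genes had −0.08 over 17 genes, and RNA polymerase III genes 0.00 over 10 genes. The lists in which the summed level did not overlap were the U1 proteins, at 25.8, 24.4 and 25.2 normalised CPM in *klp10A* RNAi and 20.4, 23.3 and 22.6 in WT, and the RNase P and MRP proteins, at 8.94, 8.01 and 8.46 in *klp10A* RNAi and 6.89, 7.96 and 7.90 in WT. Both sums were higher in *klp10A* RNAi, and no gene of these lists passed the test. Of all rows 35.5% did not overlap in either direction, so this is not a result about these lists.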

How the data were processed

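RNA was depleted of rRNA with Ribo-Zero Gold and made into stranded libraries by the authors. They aligned reads to the Dm3 genome with STAR 2.6.0a, allowing up to 100 alignments per read, and assigned them to genes and TEs with TEtranscripts 2.0.3, which divides reads with several matches among them. The deposited table holds these counts as whole numbers with unequal totals, although the sample descriptions speak of normalised counts. The 6 small RNA libraries of the series hold values per TE and were not used.

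Counts of all genes and TEs were fitted with edgeR 4.0.16 (R 4.3.3): filterByExpr by genotype, TMM, the quasi-likelihood F-test and Benjamini-Hochberg adjustment over all 12100 rows, with a threshold of 0.01. DESeq2 1.42.0 was an alternative. Gene families were summed and fitted with all other rows. 7SK and U3 were added as families of their own because the symbol rule matches them. Shares were compared by two-sided exact permutation tests over the 20 splits of 6 libraries. The code was tested on simulated data. The authors describe biological triplicates, and p-values measure the spread between these libraries. Depth was 18634687 to 25536724 counts, and the limit of 3 counts covers counting error only.

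Every member is accounted for. Values in each library are given for the member or summed family that carries each RNA and for members with at least 10 CPM, and list genes were named where they passed 0.01; others were named after their values were seen. The symbol rule for the members uses no measured value, but this set of RNAs and the gene lists were chosen with earlier results of these data known. Lengths, chromosomes and names come from RefSeq (Release 6), in which 37 of the 38 symbols matched; coordinates are not given because the counts use another assembly. Groups come from the sample titles. The alternatives were other scalings, filters, thresholds, a replicate block, the Wald test and leaving out libraries.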

Additional observations from a re-analysis of the deposited data

How the results depend on the processing

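No member or family passed 0.01 with other filters, upper-quartile or DESeq2 size factors, TMM without the 38 rows, TMM over genes alone or any single library left out. The count was 1 for members and for families (roX1 each time) with the DESeq2 Wald test, with thresholds of 0.05 and of 0.1, and with both libraries numbered 2 left out, and 1 for members (U4:25F) with total counts and with total counts without the 38 rows. The U4:25F calls come from fits in which the spread of each row was set to the trend over all rows. Leaving out both libraries numbered 2, and total counts without both the 38 rows and the CR-number genes, were chosen after seeing the data. For roX1 the adjusted p reached 0.000334 with DESeq2 (log2 fold change −0.73) and 0.00810 without the libraries numbered 2 (−0.64). In the latter setting 4.44% of all features passed 0.01, against 2.04% in the fit of all libraries. The *klp10A* RNAi libraries kept there had a chi-square per degree of freedom of 7.35, and the WT libraries 103. The share of all features under 0.05 was not computed there, so families under 0.05 are not a result about these families. Besides roX1 they were 5.8S rRNA (−1.47, adjusted p = 0.0164 by edgeR), RNase MRP (−0.47, 0.0174), U4 (−0.34, 0.0301) and U12 (0.44, 0.0322).

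The median over the members tested was 0.38 with total counts and 0.45 without the 38 rows, and −0.29 to −0.01 with single libraries left out. The median over all rows was 0.50 with total counts, 0.56 without the 38 rows, 0.20 without CR-number genes, 0.24 without both, 0.021 with TMM without the 38 rows, 0.025 with the upper quartile, and 0.0029 to 0.022 with single libraries left out. All rows past 0.01 numbered 242 (24 higher, 218 lower), and 526 with total counts (263 higher, 263 lower), 451 with total counts without the 38 rows (220 higher, 231 lower), 196 without both (44 higher, 152 lower), 781 with DESeq2 and 541 without the libraries numbered 2. They numbered 8, 47 and 1 without *klp10A* RNAi replicates 1, 2 and 3, and 192, 390 and 196 without WT replicates 1, 2 and 3. With the rRNA pseudogenes added, the difference in share was −3.05 points. Single libraries left out gave 2.44 to 6.0 points.

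No family that changed its sign passed 0.01 in either direction. With total counts the signs of 7SK (0.063), RNase P (0.29), U1 (0.39), U11 (0.14), U2 (0.23), U4 (0.034), U4atac (0.18) and U5 (0.36) turned. With total counts without the 38 rows these were 0.13, 0.36, 0.45, 0.21, 0.30, 0.10, 0.25 and 0.43. Without CR-number genes U1 was 0.11 and U5 0.0498, and without both U1 was 0.16, U5 0.11 and RNase P 0.027. These turns follow from the shift of the median. Without the libraries numbered 2, 5.8S rRNA was −1.47, 7SL −0.25 and roX2 −0.30. With single libraries left out, 5.8S rRNA ranged from −1.11 to 1.46, 7SL from −0.11 to 0.15, roX2 from −0.19 to 0.40, U1 from −0.21 to 0.015, U12 from −0.035 to 0.52, U2 from −0.43 to 0.031, U4atac from −0.51 to 0.019 and U5 from −0.30 to 0.081. Leaving out the lowest or highest library is what turned these, and the cause of its values was not tested.

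The replicate numbers did not pair the libraries: the correlations between same-numbered libraries of the genotypes were −0.28, −0.38 and −0.09. With the replicate number as a block, no member passed 0.01, 98 rows did, roX1 had an adjusted p of 0.166 and 5.8S rRNA a log2 fold change of −0.20.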

Other observations

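The small nucleolar and Cajal body RNAs, which guide the modification of rRNA and snRNA, were outside the 38 rows. Of 288 such rows 147 were tested, and their median log2 fold change was −0.07. None rose and 1 fell at an adjusted p of 0.01 by edgeR, against 2.00% of all rows called. The one that fell was snoRNA:Psi28S-3186, a guide for pseudouridylation of 28S rRNA by its name. It had 4.75, 3.96 and 5.29 normalised CPM in *klp10A* RNAi testes, against 9.15, 12.1 and 11.6 in WT testes (log2 fold change −1.23 ± 0.18 SE, adjusted p = 0.00645 by edgeR). At an adjusted p of 0.05 there were 2 that fell and 0 that rose, against 7.60% of all rows called. Under an unadjusted p of 0.05 there were 10 of the 147, against 25.2% of all rows. The snoRNA and scaRNA rows took 0.446%, 0.348% and 0.438% of all counts in *klp10A* RNAi and 0.252%, 0.277% and 0.391% in WT.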
